A study of Mus musculus with 6 samples.

Results

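Heat shock proteins and their J-domain co-chaperones form the machinery that folds, holds and refolds proteins. The members described here were chosen by name: rows of the authors' deposited table that name 1 gene of the Hspa, Hspb, Hsp90, Dnaja, Dnajb or Dnajc families, together with Hsph1, Hspd1, Hspe1, Hsf1, Hsf2 and Bag1 to Bag5. This gave 80 of the 37757 rows, of which 69 were tested by the authors and 11 were not. The measurements come from mRNA sequencing of cultured kidney epithelial cells taken from 8 week-old C57/Bl6J mice of the genotype Bim-/- Bmf-/-, which both groups share. Bim and Bmf are proteins that promote cell death. The 3 attached libraries came from cells left on their substrate, and the 3 libraries titled for anoikis, the death that follows loss of anchorage, came from cells held in suspension for 4 h. The labels call the libraries independent without naming separate cultures or animals, and the spread behind the p-values may therefore be technical. The comparison asks how transcripts of the folding machinery differ between anchored and unanchored cells of this genotype.

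HSP70 proteins bind and release exposed hydrophobic stretches of client proteins in a cycle driven by ATP. J-domain proteins bring clients to HSP70 and stimulate its ATPase, while HSP110 and BAG proteins act as nucleotide exchange factors that let the client go. HSP90 takes over partly folded clients such as kinases and steroid receptors, small heat shock proteins hold unfolding proteins without ATP, and HSF1 is the transcription factor that raises many of these genes after heat or other protein-damaging stress. Separate sets serve the cytosol, the endoplasmic reticulum (ER) and the mitochondria.

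The authors' deposited table gives 1 FPKM for each gene and condition (a level scaled to transcript length and library size) and 1 fold change, p and q for suspended against attached. Which column is which condition rests on reading the final letters A and S of the column names as attached and suspension. Values per library were not analysed here, so no spread between replicates can be printed and the depth is unknown. A gene was called when the authors' q was below 0.05, and every called gene named below has q = 0.000185, the smallest q per the authors' deposited table, unless another is given. Of 9 kidney epithelial markers all 9 were tested, summing to 3224 FPKM attached and 2686 FPKM suspended, with 6 called lower and 2 higher, per the authors' deposited table. The transcription factors Pax2 (150 to 30.9 FPKM) and Pax8 (104 to 37.1 FPKM) fell most, while Cdh1, E-cadherin, rose from 95.4 to 201 FPKM, per the authors' deposited table. Endothelial markers summed to 0.353 and 0.298 FPKM, with Tek listed at 0 attached, and fibroblast markers to 0.225 and 1.97 FPKM per the authors' deposited table. The only fibroblast marker tested, Pdgfra, was called higher, from 0.155 to 1.81 FPKM. The podocyte list, with Nphs1 and Wt1 listed at 0 attached, went from 1.60 to 7.95 FPKM, all but a small part of it Podxl, per the authors' deposited table. The leukocyte list, with Emr1 listed at 0 attached, went from 25.0 to 47.4 FPKM through Cd68 (23.4 to 34.9) and Ptprc (1.42 to 12.4 FPKM) per the authors' deposited table. Lyz2, also on that list, was lower in value at 0.155 and 0.0174 FPKM and was not tested. Rows of mitochondrially encoded RNA, read as a sign of RNA quality, summed to 31198 FPKM attached and 68368 FPKM suspended per the authors' deposited table. The part of these shifts in the results that follow was not tested. In bulk RNA, fewer cells of a type and less RNA per cell cannot be told apart.

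Of the 69 tested members, 13 were called higher and 23 lower in suspension, and 33 were not called. This is 18.8% higher and 33.3% lower, beside 24.8% higher and 26.3% lower among all 14404 tested rows that name 1 gene per the authors' deposited table. Among rows of at least 1 FPKM in both conditions the shares were 22.6% and 30.9%. The share called in either direction, 36 of 69, was close to the 51.1% of all 14404 rows. The median log2 fold change of the tested members was -0.19, beside -0.03 over all tested rows and -0.11 over rows of at least 1 FPKM in both conditions, the level against which a shift is best read (authors' deposited table). Changes were mostly modest: 5 members were called higher and 6 lower with at least a 2-fold change, or 7.25% and 8.70%, beside 12.5% and 7.16% of all tested rows. Among rows of at least 1 FPKM in both conditions these shares were 7.71% and 7.14%, near those of the members. The 5 were Hspb1, Hspb11, Bag3, Dnajb9 and Dnajc22, and the 6 were Hsph1, Hspa4l, Hsf1, Hspb2, Hspb9 and Hspa12a.

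The classes differed in their counts, although this difference was not tested. Outside the J-domain families, 19 of 30 tested genes were called lower and 3 higher, whereas of 37 tested J-domain genes 4 were called lower and 10 higher per the authors' deposited table. Over 10% of the 50-base words of the longest coding transcript also occur in transcripts of other genes for 20 of the tested members, among them Hspa8, Hspa1a, Hspa1b, Hsp90aa1, Hspd1, Hspb1 and Hspb2. Leaving those 20 out left 12 of 49 called higher (24.5%) and 15 lower (30.6%). Outside the J-domain families 12 of the 19 that remained were lower, 63.2% beside 63.3% before. Of 29 J-domain genes 3 were lower (10.3%) and 10 higher (34.5%). This alternative was chosen after seeing the data. No source used here says how reads that fit several places were counted.

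HSP110 proteins, relatives of HSP70 that act as its exchange factors and hold unfolded chains, fell as a class. All 3 were called lower, beside 26.3% of all tested rows. Their summed level went from 570 FPKM attached to 196 FPKM suspended per the authors' deposited table. Hsph1, a heat-inducible HSP110, stood at 362 FPKM attached and 86.2 FPKM suspended, 4.19-fold lower (log2 fold change -2.07), per the authors' deposited table. Attached cells thus held more Hsph1 than Hspa8 per length, and suspended cells held less. Its row spans chromosome 5, positions 149614287 to 149636376 (mm10), per the authors' deposited table. Hspa4l went from 89.8 to 39.1 FPKM and Hspa4 from 119 to 70.8 FPKM per the authors' deposited table. None of these 3 genes shares more than 0.447% of its 50-base words with other genes.

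Of 10 tested HSP70 genes 7 were called lower (70.0%) and 0 higher by the authors' Cuffdiff test (0 higher also at an unadjusted p below 0.05). Of all tested rows 26.3% were called lower and 24.8% higher. Hspa8, the constitutive cytosolic HSP70, went from 288 to 161 FPKM per the authors' deposited table. Hspa1b, a stress-inducible HSP70, went from 93.5 to 47.1 FPKM, and its neighbour and near copy Hspa1a from 8.81 to 6.40 FPKM (q = 0.00199), per the authors' deposited table. The transcripts of this pair are hard to tell apart: 62.3% of the 50-base words of Hspa1b also occur in other genes, all of them in Hspa1a, so the split of reads between them is uncertain. The Hspa8 transcript shares 74.8% of its words with other genes, led by Gm15459, and its gene holds 3 small nucleolar RNA genes on the same strand.

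The main HSP70 genes of the ER and the mitochondria, Hspa5 and Hspa9, each moved by less than 1.5-fold. Hspa5, the ER chaperone also called BiP, stood at 225 FPKM attached and 258 FPKM suspended (q = 0.116) per the authors' deposited table. Hspa9, the mitochondrial HSP70, went from 254 to 215 FPKM (q = 0.0402), the smallest change among the called members, per the authors' deposited table. With the -0.11 median of rows of at least 1 FPKM in both conditions removed, its log2 fold change of -0.24 became -0.14. Hspa13, an HSP70-like protein of microsomes, went from 24.9 to 17.4 FPKM, and Hspa14, found on ribosomes with a J-domain partner, from 31.1 to 23.3 FPKM (q = 0.00295) per the authors' deposited table. That J-domain partner, Dnajc2, also fell, from 31.9 to 25.1 FPKM (q = 0.00945), per the authors' deposited table.

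The remaining HSP70 genes were Hspa2, Hspa12a, Hspa12b and Hspa1l. Hspa2, known from the testis, stood at 13.7 and 11.6 FPKM (q = 0.109) per the authors' deposited table. The distant relatives Hspa12a (1.09 to 0.504 FPKM, called lower) and Hspa12b (0.318 and 0.288 FPKM, q = 0.778) lay near or below 1 FPKM per the authors' deposited table. Hspa1l, which was not tested, was listed at 0.282 and 0.155 FPKM per the authors' deposited table.

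HSP90 was the most abundant class at summed levels of 1450 FPKM attached and 1425 FPKM suspended per the authors' deposited table. Most of it was the constitutive cytosolic Hsp90ab1, which stood at 1104 FPKM attached and 1151 FPKM suspended and was not called (q = 0.777) per the authors' deposited table. The inducible cytosolic form Hsp90aa1 fell from 157 to 106 FPKM per the authors' deposited table. It shares 58.5% of its 50-base words with other genes, while Hsp90ab1 shares 4.49%. Hsp90b1, the ER form also called GRP94, stood at 190 and 168 FPKM (q = 0.237) per the authors' deposited table.

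**Figure D1:**
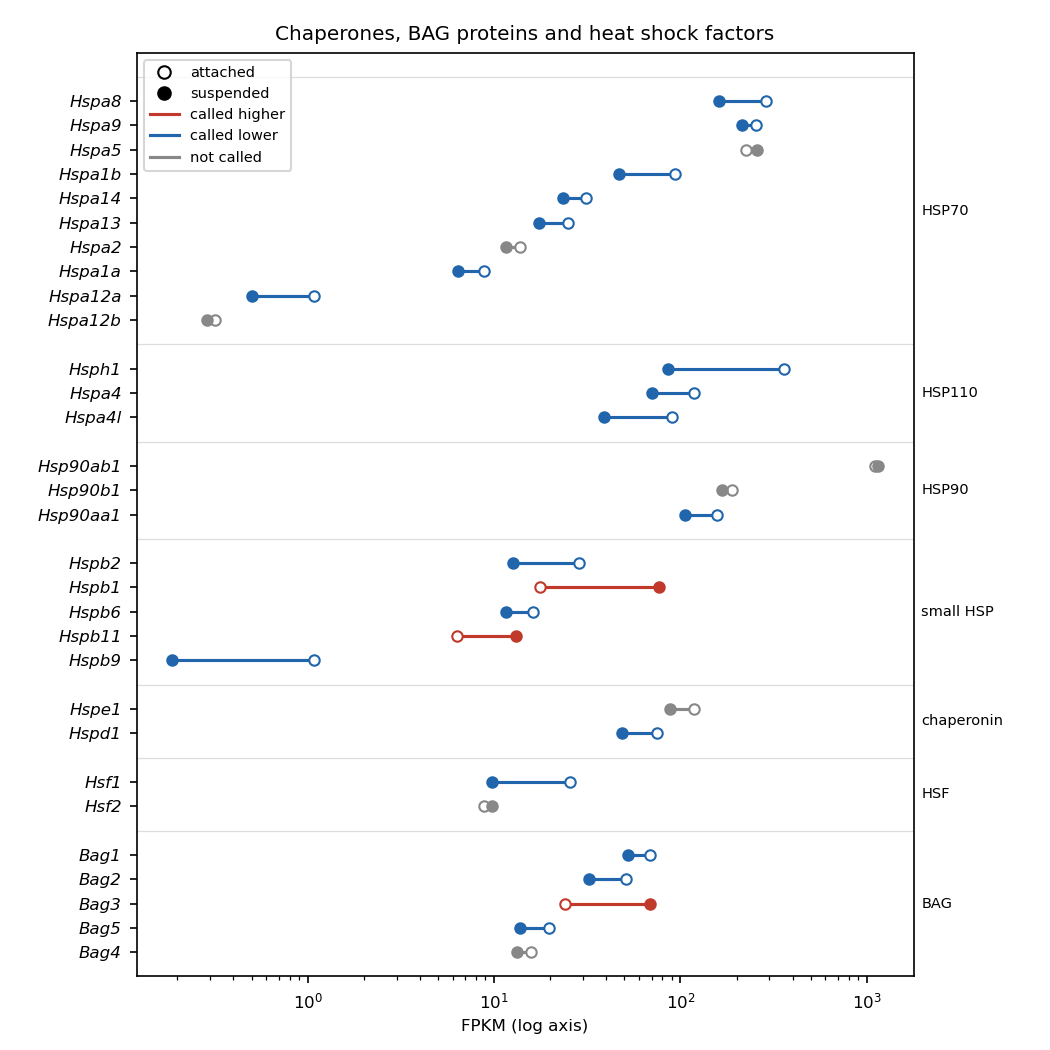
FPKM on a log axis for each tested chaperone, BAG protein and heat shock factor, 1 value per condition as the authors' deposited table gives it; attached is drawn open and suspended filled, and line colour shows the call. All 3 HSP110 genes lie to the left in suspension, Hsp90ab1 stays near 1104 to 1151 FPKM, and Hspb1, Hspb11 and Bag3 are the only genes of the plot called higher.

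The small heat shock proteins split. Hspb1, also called HSP25 in the mouse, which binds unfolding proteins and stabilises actin filaments, rose from 17.7 to 76.5 FPKM (4.33-fold, log2 fold change 2.11) per the authors' deposited table. Its row spans chromosome 5, positions 135887919 to 135889563, per the authors' deposited table, and 51.6% of its 50-base words also occur in other genes, led by the pseudogene Hsp25-ps1. Hspb11, which despite its name is a subunit of intraflagellar transport, rose from 6.36 to 13.2 FPKM per the authors' deposited table. Hspb6, a small heat shock protein of smooth muscle, fell from 16.2 to 11.6 FPKM (q = 0.0401), and Hspb9, known from the testis, from 1.08 to 0.187 FPKM (q = 0.0109), per the authors' deposited table. The Hspb6 row spans positions 30539134 to 30559838 of chromosome 7, while the annotated gene spans 30552178 to 30555443. Lin37 and Proser3 overlap the Hspb6 gene on the other strand, and the part of their reads in its value was not tested. Adding 1 FPKM to both values shrank the log2 fold change of Hspb9 from -2.54 to -0.81. The genes Hspb3, Hspb7 and Hspb8 were below 0.0937 FPKM in both conditions and were not tested (authors' deposited table).

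Hspb2 fell from 28.6 to 12.6 FPKM per the authors' deposited table. It lies on the minus strand of chromosome 9, and in the GENCODE annotation it overlaps Cryab, the small heat shock protein alpha-B-crystallin, on the plus strand. The authors' rows for the pair do not overlap: that of Hspb2 ends at position 50752354 and that of Cryab starts at 50752758. Cryab was far more abundant and fell too, from 1476 to 789 FPKM per the authors' deposited table. In the annotation 28.0% of the 50-base words of the Hspb2 transcript also occur in Cryab transcripts, and no source used here says whether strand was counted. The part of Cryab reads in the Hspb2 value was not tested.

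The mitochondrial chaperonin consists of Hspd1 (HSP60) and its lid Hspe1 (HSP10), which close around a folding protein. Hspd1 fell from 75.0 to 48.4 FPKM per the authors' deposited table. Hspe1 stood at 119 and 88.4 FPKM, a change of the same sign that was not called (q = 0.0674; p = 0.0339 before adjustment), per the authors' deposited table. The genes stand head to head on chromosome 1 with starts 111 bases apart in the GENCODE annotation. Both share over 40% of their 50-base words with other genes (44.8% each), led by the pseudogene Hspd1-ps3 for Hspd1. Hspd1 is itself among the genes that share words with Hspe1, and the authors' rows of both genes span the same positions, 55077835 to 55091307. The part of the reads of each gene in the value of the other was not tested.

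Hsf1 itself fell from 25.5 to 9.79 FPKM (2.60-fold, log2 fold change -1.38) per the authors' deposited table. Its transcript shares no 50-base word with another gene, and its row lies on chromosome 15, positions 76477445 to 76500972, per the authors' deposited table. Hsf2, a related factor, was level at 8.88 and 9.75 FPKM (q = 0.442) per the authors' deposited table. In suspension the 2 factors thus had nearly equal levels per length. An mRNA level says nothing of the activity of HSF1, which is set by its release from chaperones, trimerisation and phosphorylation.

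Promoter sequences were matched by symbol for 61 of the 80 members, from RefSeq (GRCm38.p6), and the 250 bases before each start were searched on both strands. HSF1 binds inverted repeats of a short unit, the heat shock element. The extended form GAANNTTCNNGAA was present upstream of 3 members, Hspd1, Hspe1 and Dnajb6 (4.92%), beside 0.514% of the 27025 genes with a window. Hspd1 and Hspe1 share their upstream region, so these are 2 loci. The short forms GAANNTTC or TTCNNGAA, which the extended form contains, were present upstream of 14 members (23.0%), beside 14.5% of all genes with a window. Of the 13 tested members with a short form 2 were called higher and 5 lower, the near copies Hspa1a and Hspa1b both among the lower. Of the 39 tested members with a window and no such form 10 were called higher and 9 lower. Over all tested rows 24.8% were called higher and 26.3% lower. Only 52 of the 69 tested members had a window, and Hspa8, Hsp90aa1, Hsp90ab1 and Hsf1 had none, so these counts leave out main heat shock genes. The stretches below are shown because genes that moved in opposite directions, Hspb1 against Hsph1 and Hspa1b, carry such letters. Capitals mark the letters that match, and the strand is that of the gene.
Hsph1: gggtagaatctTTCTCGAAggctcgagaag
Hspa1b: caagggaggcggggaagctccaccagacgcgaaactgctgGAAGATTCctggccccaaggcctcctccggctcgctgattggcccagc
Hspa1a: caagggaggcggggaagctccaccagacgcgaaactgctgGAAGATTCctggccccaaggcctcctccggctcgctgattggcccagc
Hspe1: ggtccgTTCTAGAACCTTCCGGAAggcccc
Hspb1: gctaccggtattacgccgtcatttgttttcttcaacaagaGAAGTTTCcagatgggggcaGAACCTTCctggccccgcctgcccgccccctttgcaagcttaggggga

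The Hsph1 stretch is chr5:149636351-149636380 on the minus strand, with the match 33 to 26 bases before the start, and it overlaps an annotated exon of a longer Hsph1 transcript. Those of Hspa1b (chr17:34959295-34959382) and Hspa1a (chr17:34972213-34972300), both on the minus strand, have the match 104 to 97 bases before the start. The upstream windows of this pair differ at 3 of 250 positions. The Hspe1 stretch, chr1:55088053-55088082 on the plus strand, lies in the region that Hspe1 shares with the oppositely oriented Hspd1 and in an exon annotated to Hspd1. The Hspb1 stretch, chr5:135887762-135887869 on the plus strand, holds 2 matches between 117 and 90 bases before the start. A match is a run of letters and does not show that a factor binds there.

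BAG proteins, which bind HSP70 through a shared domain, also split. Bag3, the stress-inducible member that links HSP70 and small heat shock proteins to autophagy, rose from 24.0 to 68.3 FPKM (2.85-fold, log2 fold change 1.51) per the authors' deposited table. Its row spans chromosome 7, positions 128523583 to 128546977, and its transcript shares no 50-base word with another gene. The others were lower or not called. Bag2, an inhibitor of the ubiquitin ligase CHIP, fell from 51.0 to 32.2 FPKM, Bag1 from 68.3 to 52.2 FPKM (q = 0.00185) and Bag5 from 19.8 to 13.7 FPKM (q = 0.000355) per the authors' deposited table. Bag4 stood at 15.8 and 13.3 FPKM (q = 0.0647) per the authors' deposited table. The sum of the class was therefore almost the same, 179 FPKM attached and 180 FPKM suspended, while Bag3 went from the third to the highest level in it.

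J-domain proteins of type A, the general partners of cytosolic HSP70, were not called. Their 3 tested genes gave 0 calls in the authors' Cuffdiff test and 0 at an unadjusted p below 0.05. Of all tested rows 51.1% were called in either direction. Dnaja2, the most abundant J-domain gene, stood at 118 FPKM attached and 120 FPKM suspended (q = 0.832) per the authors' deposited table. Dnaja1 (20.8 and 17.8 FPKM, q = 0.258) and Dnaja4 (6.67 and 5.13 FPKM, q = 0.400) were lower in value without being called per the authors' deposited table. Dnaja1 shares 28.8% and Dnaja4 51.9% of their 50-base words with other genes. They overlap Smu1 and Wdr61, in that order, on the other strand, and the part of those reads in their values was not tested.

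Type B genes rose in 5 of 10 tested cases and fell in 0 by the authors' Cuffdiff test, with 1 lower (Dnajb11) at an unadjusted p below 0.05. Their summed level went from 243 to 345 FPKM per the authors' deposited table. Dnajb9, an ER protein that delivers misfolded proteins to BiP and to degradation, rose most, from 28.4 to 105 FPKM (3.71-fold, log2 fold change 1.89), per the authors' deposited table. Dnajb9 alone accounts for the larger part of the rise in the sum, and it lies on chromosome 12, positions 44205897 to 44210068. Dnajb2, a co-chaperone that binds ubiquitinated clients, went from 19.4 to 32.6 FPKM per the authors' deposited table. Dnajb4, a cytosolic partner of HSP70, went from 29.8 to 41.2 FPKM per the authors' deposited table. The ER membrane proteins Dnajb12 and Dnajb14, close relatives of each other, went from 28.2 to 38.5 FPKM and from 6.33 to 7.69 FPKM (q = 0.0389) per the authors' deposited table. Dnajb1, the HSP40 best known for its induction by heat, stood at 30.2 and 27.1 FPKM and was not called (q = 0.263) per the authors' deposited table. Dnajb6, a suppressor of aggregation, stood at 38.8 and 37.8 FPKM (q = 0.822) per the authors' deposited table, and it shares 42.8% of its 50-base words with other genes.

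Type C genes are held together by little more than the J domain and serve many specialised sites. Of 24 tested 5 were called higher (20.8%) and 4 lower (16.7%), beside 24.8% and 26.3% of all tested rows, and their summed level was 548 FPKM attached and 553 FPKM suspended per the authors' deposited table. The largest rise was that of Dnajc22, a membrane protein at low level, from 0.233 to 1.24 FPKM per the authors' deposited table, and adding 1 FPKM to both values shrank its log2 fold change from 2.41 to 0.86. The other 4 that rose did so by less than 1.5-fold. They were Dnajc13, which acts with clathrin coats on endosomes (17.2 to 22.3 FPKM, q = 0.00199), Dnajc21, of ribosome maturation (11.9 to 15.6 FPKM, q = 0.00733), Dnajc8, linked to splicing (42.7 to 52.9 FPKM, q = 0.0193), and Dnajc9, which binds histones (29.3 to 36.0 FPKM, q = 0.0261), per the authors' deposited table. Besides Dnajc2, those that fell were Dnajc3, Dnajc11 and Dnajc18. Dnajc3, an ER partner of BiP that also inhibits the kinase PERK, went from 36.9 to 29.5 FPKM (q = 0.00649), and Dnajc11, of the mitochondrial membranes, from 13.1 to 8.83 FPKM (q = 0.00438), per the authors' deposited table. Dnajc18 went from 8.08 to 5.61 FPKM per the authors' deposited table.

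The most abundant type C genes were not called. Dnajc5, the cysteine string protein of secretory vesicles, stood at 85.2 and 98.0 FPKM (q = 0.123), Dnajc7, which also binds HSP90, at 62.6 and 55.0 FPKM (q = 0.374), and Dnajc10, an ER disulfide reductase, at 58.6 and 59.8 FPKM (q = 0.844) per the authors' deposited table. The other type C genes without a call were Dnajc1, Dnajc4, Dnajc12, Dnajc14, Dnajc15, Dnajc16, Dnajc17, Dnajc19, Dnajc24, Dnajc27, Dnajc28 and Dnajc30. Of these, Dnajc19, of the mitochondrial import motor, had the largest difference, 21.9 and 15.7 FPKM (q = 0.318), per the authors' deposited table. A change of this size was called in genes such as Dnajb4, so size alone did not set the calls.

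**Figure D2:**
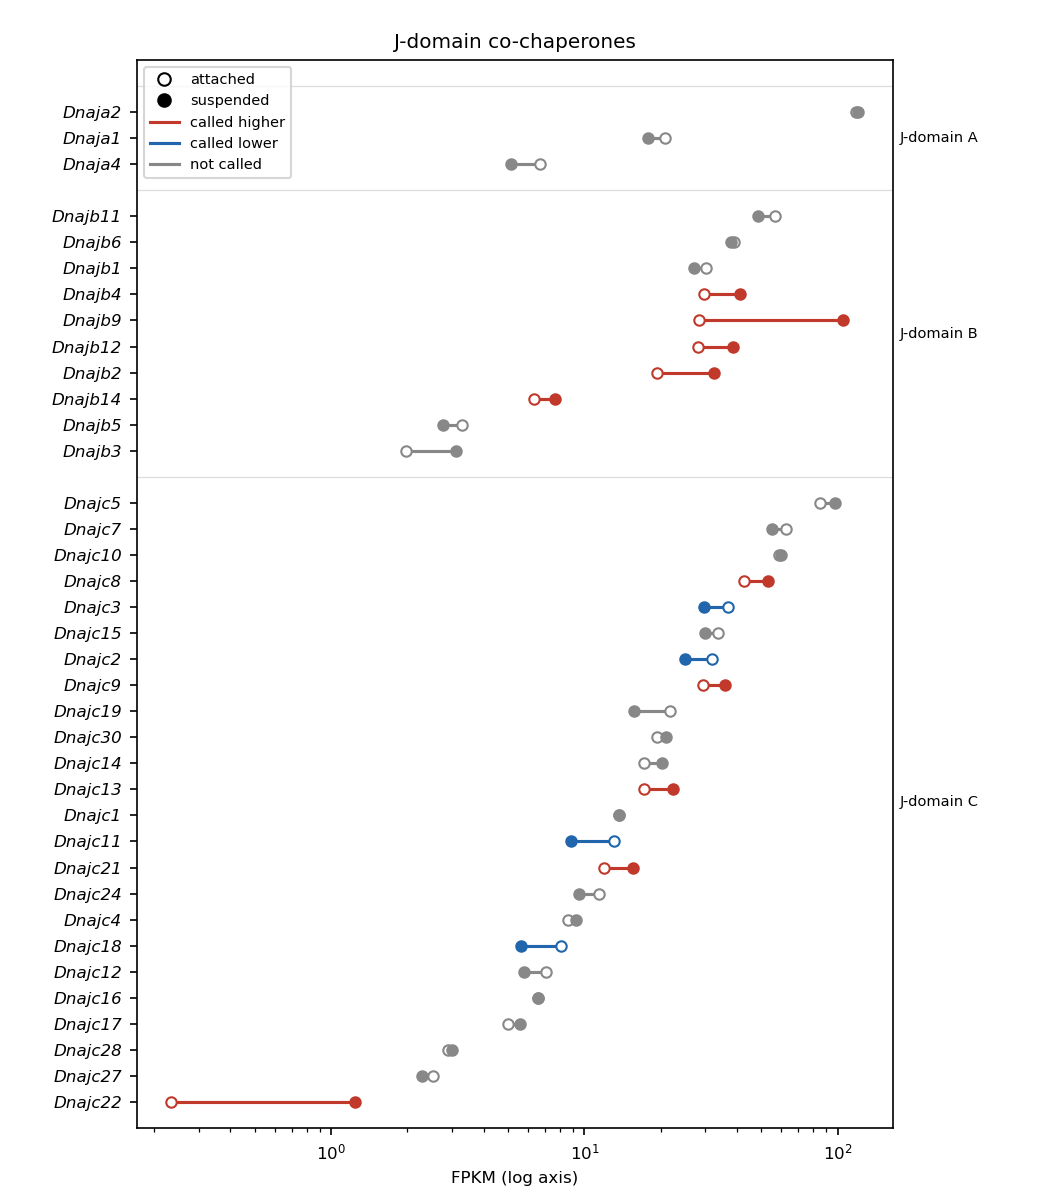
FPKM on a log axis for the 37 tested J-domain genes by type, 1 value per condition as the authors' deposited table gives it; attached is drawn open and suspended filled, and line colour shows the call. Dnajb9 moves from 28.4 to 105 FPKM, the 3 type A genes are grey, and most type C genes lie close to their attached level.

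The untested J-domain genes, Dnajb7, Dnajb8, Dnajb13, Dnajc5b, Dnajc5g and Dnajc6, were at or below 0.156 FPKM in both conditions per the authors' deposited table. The name rule also took in 3 pseudogenes. Of these Dnajc19-ps (1.75 and 1.91 FPKM, q = 0.827) and Hspa9-ps1 (1.96 and 1.18 FPKM, q = 0.139) were not called, and Dnaja1-ps, listed at 0 in both, was not tested (authors' deposited table). Outside the rule, the mitochondrial type A gene Dnaja3 stands in a row merged with Vasn that fell from 56.9 to 43.2 FPKM (q = 0.00451) per the authors' deposited table.

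Members were also grouped by the compartment that each protein is known to serve, and the difference between compartments was not tested. Of 27 tested cytosolic and nuclear members 6 were called higher (22.2%) and 10 lower (37.0%). This stands beside 24.8% and 26.3% of all tested rows, and 22.6% and 30.9% of those with at least 1 FPKM in both conditions. The summed level of these members was 2836 FPKM attached and 2364 FPKM suspended per the authors' deposited table. Of 8 tested mitochondrial members 0 were called higher by the authors' Cuffdiff test (0 at an unadjusted p below 0.05). The 3 called lower (37.5%) were Hspd1, Dnajc11 and Hspa9. The 8 members summed to 544 FPKM attached and 436 FPKM suspended per the authors' deposited table. Of 13 ER members 3 were higher and 3 lower, 23.1% each and near the shares of all tested rows given above, and their sum went from 701 to 778 FPKM per the authors' deposited table. Dnajb9 supplied most of that difference. The 21 tested members that were placed in no compartment had 4 calls higher (19.0%) and 7 lower (33.3%). They included Bag1 to Bag5, Hsf1, Hsf2 and Hspb2, so the cytosolic and nuclear group does not hold every member that may work there.

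**Figure D3:**
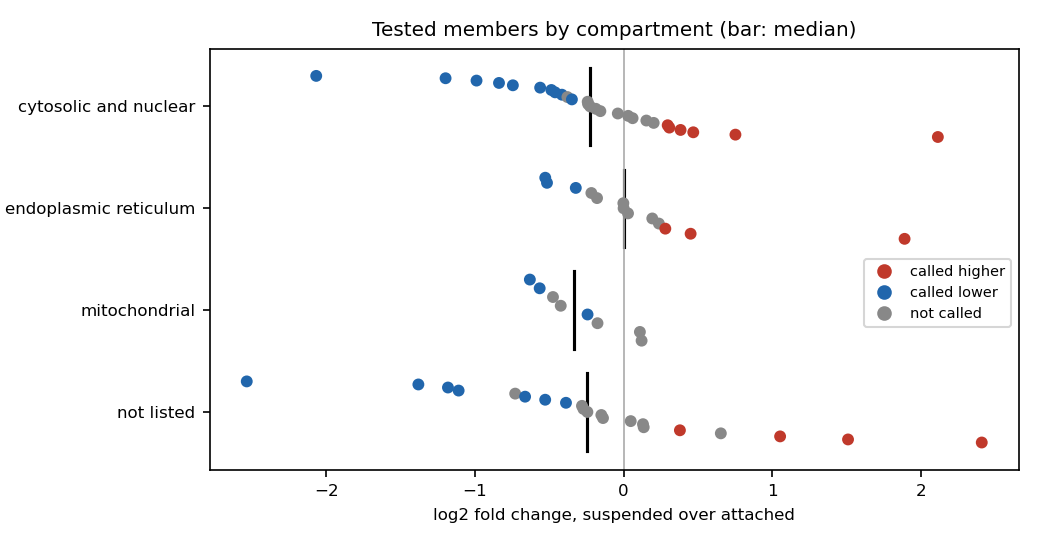
Log2 fold change (suspended over attached) of each tested member from the authors' deposited table, by the compartment it is known to serve, with colour for the call and a black median bar. Medians lie at -0.23 for cytosolic and nuclear, 0.00 for ER and -0.33 for mitochondrial members, with Hsph1 at the far left of the cytosolic row.

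ER chaperone genes are known targets of the unfolded protein response, whose factors ATF6 and NF-Y bind the ER stress element. The letters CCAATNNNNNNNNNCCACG, on either strand, were present upstream of 3 members, Hspa5, Hsp90b1 and Dnajc3 (4.92%), beside 0.130% of all genes with a window. They are shown because these 3 ER genes did not rise beside Dnajb9: Hspa5 and Hsp90b1 were not called and Dnajc3 fell. Capitals again mark the match.
Hspa5: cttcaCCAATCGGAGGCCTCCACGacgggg
Hsp90b1, farther from the start: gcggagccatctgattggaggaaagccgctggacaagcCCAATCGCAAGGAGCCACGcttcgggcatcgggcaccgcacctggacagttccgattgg
Hsp90b1, nearer the start: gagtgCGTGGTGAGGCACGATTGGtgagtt
Dnajc3: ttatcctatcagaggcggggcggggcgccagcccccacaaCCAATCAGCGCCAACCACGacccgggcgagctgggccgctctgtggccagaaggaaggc

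These stretches are chr2:34772020-34772049 on the plus strand for Hspa5, which lies in an annotated exon of a longer Hspa5 transcript, and chr14:118937787-118937885 on the plus strand for Dnajc3. For Hsp90b1 they are chr10:86705598-86705694 and chr10:86705527-86705556, both on the minus strand, and the nearer lies over an annotated exon of Hsp90b1. The matches begin 65 bases before the start in Hspa5, 105 in Dnajc3, and 212 and 107 in Hsp90b1 (GRCm38.p6). Dnajb9 has a window that holds neither this run of letters nor a heat shock element, which says only that the letters are not there.

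Genes that work with these chaperones were taken from 3 lists outside the name rule. Of 22 tested HSP90 co-chaperones 4 were called higher (18.2%) and 10 lower (45.5%), beside 24.8% and 26.3% of all tested rows and 22.6% and 30.9% of those with at least 1 FPKM in both conditions, per the authors' deposited table. The largest fall was that of Chordc1, a heat-inducible HSP90 partner, from 42.3 to 12.1 FPKM per the authors' deposited table. Ahsa2, a relative of the HSP90 ATPase activator, went from 20.3 to 11.7 FPKM (q = 0.0117) per the authors' deposited table. Of those that rose, Fnip1 (9.16 to 35.8 FPKM) and Fnip2 (6.23 to 28.0 FPKM) slow the ATPase of HSP90 and act with folliculin in nutrient sensing, and Tsc1 (5.82 to 14.9 FPKM) is also a brake on mTORC1, per the authors' deposited table. The remaining one was Fkbp5, a glucocorticoid-induced immunophilin, at 0.705 and 3.75 FPKM per the authors' deposited table, and adding 1 FPKM shrank its log2 fold change from 2.41 to 1.48.

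Of 17 tested regulators of HSP70 and of heat shock factors 4 were called higher (23.5%) and 6 lower (35.3%), beside 24.8% and 26.3% of all tested rows, per the authors' deposited table. Grpel2, a mitochondrial exchange factor for Hspa9, rose from 20.3 to 50.5 FPKM, while its relative Grpel1 was not called (30.8 and 25.0 FPKM, q = 0.0536), per the authors' deposited table. Hscb, a J-protein of iron-sulfur cluster assembly, rose from 17.3 to 25.7 FPKM (q = 0.00157) per the authors' deposited table. Hyou1, the HSP110 of the ER, fell from 59.7 to 30.5 FPKM, like the cytosolic HSP110 genes, per the authors' deposited table. Clpb, a mitochondrial disaggregase, fell from 16.6 to 11.1 FPKM (q = 0.00637), and Hsbp1, a small protein that binds HSF1, from 162 to 119 FPKM per the authors' deposited table. Hsf4, a heat shock factor known from the lens, rose from 0.144 to 0.472 FPKM (q = 0.00374) and stayed below 1 FPKM, per the authors' deposited table, and adding 1 FPKM to both values shrank its log2 fold change from 1.71 to 0.36.

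Of 12 heat-inducible genes outside the families 3 were called higher (25.0%) and 7 lower (58.3%), beside 24.8% and 26.3% of all tested rows, per the authors' deposited table. Zfand2a, also called AIRAP, a proteasome-associated protein induced by arsenite and heat, rose from 26.6 to 248 FPKM per the authors' deposited table. The polyubiquitin gene Ubb rose from 127 to 297 FPKM per the authors' deposited table. Those that fell included Cryab, P4ha1, a collagen prolyl hydroxylase (30.3 to 14.6 FPKM), and Serpinh1, the collagen chaperone HSP47 (113 to 61.3 FPKM), per the authors' deposited table. Heat-inducible genes thus stood on both sides: Zfand2a, Ubb, Hspb1 and Bag3 were higher in suspension, whereas Hsph1, Hspa1b, Chordc1 and Cryab were lower.

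**Figure D4:**
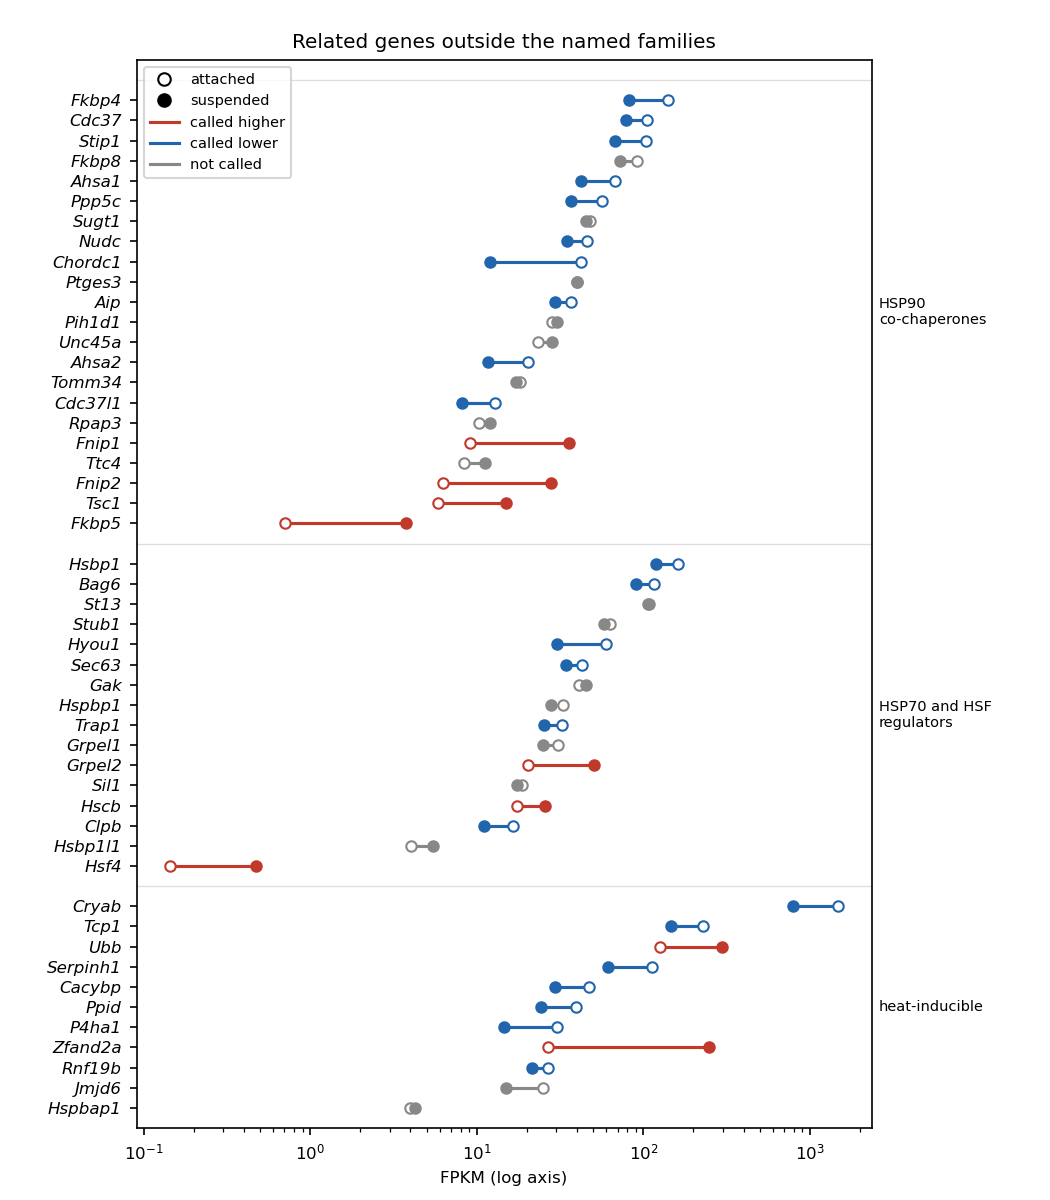
FPKM on a log axis for most of the tested genes of the 3 related lists, 1 value per condition as the authors' deposited table gives it; attached is drawn open and suspended filled, and line colour shows the call. Zfand2a moves from 26.6 to 248 FPKM, Cryab has the highest level of the plot, and Chordc1 moves from 42.3 to 12.1 FPKM.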

How the data were processed

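Per the submitters' processing notes, TopHat, Bowtie, Cufflinks 1.0.3 and Cuffdiff were used with the build mm10; no source used here gives settings, annotation or strand. The authors deposited 1 FPKM per condition, a log2 fold change, a test score, a p-value and a q-value, per the file headers. Suspended and attached were read from column names ending in S and A. The deposited log2 fold change differed from the FPKM ratio by at most 9.5e-06 among tested members. No test on libraries was run; calls are the authors' q below 0.05. Depth is unknown, so no counting interval is given. Members and lists were chosen with earlier results of these data known. Values are given for all tested members outside the J-domain families, for J-domain genes called with a 1.5-fold change or among the 5 of highest mean, and for up to 5 called genes per related list reaching 5 FPKM in either condition; other genes given values were added after theirs were seen, and some genes are not reported here. Symbols were matched to RefSeq synonyms. All 80 members overlapped their gene in GENCODE M21 (GRCm38), and 47 of these rows had the same start as the gene. Of the tested members, 17 overlap a coding gene on the other strand. Row starts were converted to count from 1. Counting, adjustment and motif search were tested on simulated data. The tools were pandas 2.3.3, NumPy 2.4.6 and matplotlib 3.10.9 in Python 3.11.15, with SciPy 1.17.1 for the simulated test.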

Additional observations from a re-analysis of the deposited data

How the results depend on the processing

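Requiring a 2-fold change left 5 members higher and 6 lower, and in the lists 1 HSP90 co-chaperone, 0 regulators and 1 heat-inducible gene lower and 2 regulators higher. The higher regulators were also 2 with at least 1 FPKM in both conditions or 5 FPKM in the higher one. Removing the median of rows of at least 1 FPKM in both conditions (-0.11) moved the median of the members from -0.19 to -0.0796. Leaving out the members that share sequence, an alternative chosen after seeing the data, left 15 lower of 49 tested. The other 52 of 62 alternative values stayed within 1.5 times the count or 0.1 of the median. Counts with the median removed kept the authors' q, so they could change only where a direction reversed. The direction of the 68 called genes examined, the 36 members among them, was not put to a test by these settings. Adding the same pseudocount of 1 or 0.1 to both values cannot reverse a fold change. Removing the median of -0.11 could reverse only a smaller fall, and the smallest change of a called member was -0.24 (Hspa9). A pseudocount of 1 shrank Dnajc22, Hspa12a, Hspb9, Fkbp5, Hsf4 and Synpo2 by over 1.5 times, one of 0.1 Synpo2, and removing the median Hspa9 and Dnajc3. No paired analysis was possible because the columns hold 1 value per condition; for the same reason another test and leaving out a replicate were not run.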

Other observations

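Bag3 acts with HSP70 and Hspb8 in chaperone-assisted autophagy, in which clients marked with ubiquitin are passed to autophagy receptors. The genes of this route were chosen after their values were seen. Sqstm1, the receptor p62, went from 305 to 1951 FPKM, Gabarapl1, which coats autophagosomes, from 115 to 312 FPKM, and Wipi1, of autophagosome formation, from 17.4 to 42.4 FPKM, all with q = 0.000185 per the authors' deposited table. Stub1, the ubiquitin ligase CHIP, stood at 63.3 and 58.4 FPKM (q = 0.675), and Hspb8, the usual small heat shock partner of Bag3, was not tested at 0.0354 and 0.0929 FPKM, per the authors' deposited table. Of other genes tied to this route, the scaffold Ywhag rose from 165 to 208 FPKM (q = 0.00348) and the dynein light chain Dynll1 fell from 271 to 203 FPKM (q = 0.0122) per the authors' deposited table. Synpo2, a partner of Bag3, rose from 0.0761 to 0.432 FPKM (q = 0.00685), still under 1 FPKM, while Dnajb6 was not called and Hspa8 fell, per the authors' deposited table. The actin crosslinker Flnc, a known client, went from 11.7 to 6.41 FPKM, and Flna from 234 to 174 FPKM (q = 0.0437) per the authors' deposited table.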
